A study of Mus musculus with 31 samples.

Results

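The 8 genes described here, Lyl1, Tal1, Lmo2, Hhex, Gfi1b, Bcl11a, Spi1 and Mef2c, encode transcription factors or cofactors of blood progenitors. They were taken by symbol, through their Ensembl IDs, from the 48881 genes of each count table, and all 8 matched 1 gene in both. Haematopoietic progenitors enter the thymus with a set of such regulators still active, and switch them off as they commit to the T lineage. LYL1 and TAL1 are basic helix-loop-helix factors that pair with E proteins and bind E boxes, and LMO2 is the LIM-domain bridge that joins them to LDB1 and GATA factors. HHEX is a homeobox repressor of progenitors, BCL11A a zinc finger repressor of lymphoid progenitors, SPI1 (PU.1) an ETS factor of myeloid and early lymphoid cells, MEF2C a MADS-box factor of progenitors and of muscle, and GFI1B a zinc finger repressor of erythroid and megakaryocyte cells.

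RNA was sequenced from 31 libraries of C57BL/6 mouse cells. DN1 and DN3 thymocytes, an early and a later CD4-CD8- stage, grew on OP9-DL1 stroma, which supplies a Notch ligand, with IL-2, IL-7 and SCF. All of them carried R26-CreERT2 and R26-stop-tdTomato, without further alleles in controls (replicates c and d) and with E2Af/fHEBf/f in the floxed cultures (replicates a and b), so that 4-hydroxytamoxifen, given to both genotypes on day 4, deletes E2A (Tcf3) and HEB (Tcf12) in the floxed cells. Libraries were made on day 4 from unsorted cultures and on days 5 and 7 from sorted tdTomato-positive cells, with n = 2 in each of the 12 groups. The labels of the DN1 day 7 samples place the drug on day 7, and the series text, followed here, on day 4. Group 2 innate lymphoid cells (ILC2) came directly from the thymus of plck-Cre; E2Af/fHEBf/f mice (dKO, n = 2), the lung of such mice (dKO, n = 2) and the lung of plck-Id1 transgenic mice (Id1, n = 3, of which 2 carry genotype labels that read Id2 and Id3). The plck promoter, from the T lineage kinase gene Lck, drives the Cre and the Id1 transgene. Ages are not given in the labels. Nothing states that replicates are separate animals, and p-values then measure the spread between these libraries.

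Levels are CPM (counts scaled to the TMM-adjusted library size), changes are log2 values ± standard error from edgeR's quasi-likelihood test, and a member was called at a Benjamini-Hochberg adjusted p under 0.05 over all genes tested. The libraries held 3695522 to 13065445 counts. As a check of the labels, Tcf12 was at 213 and 201 CPM in the DN1 control libraries of day 5 and at 91.0 and 120 in the floxed ones, and at 264 and 271 against 107 and 105 on day 7. In the thymic ILC2 libraries labelled dKO, Tcf12 was at 265 and 284 CPM. That is as high as in the DN1 controls of day 7, and below the DN3 controls of that day (484 and 478). These ILC2 values rest on TMM factors of 0.55 and 0.658, where those of the cultures were 0.982 to 1.11. The level of Tcf12 on this scale thus neither bears out that label nor settles it. Tcf3 was at 12.8 and 5.05 CPM against 78.9 and 89.8 in the DN1 controls of day 7. In the lung Tcf12 was at 105 and 131 CPM in dKO and at 167 to 232 in Id1 libraries. Gene counts include exons outside the floxed part. Genotype went with sex in the cultures: Xist lay between 4.24 and 68.6 CPM in the 12 control libraries and between 528 and 1886 in the 12 floxed ones, so genotype and sex cannot be told apart. Summed stromal markers (8 genes) reached 4518 to 6243 CPM in the unsorted DN1 cultures of day 4 and 66.3 to 174 CPM on days 5 and 7. Summed muscle markers (8 genes) reached 7893 CPM in floxed DN1 replicate b of day 7, and the other DN1 libraries held between 3.49 and 432. Mef2c is expressed in muscle, so this library was left out for it. In these bulk samples fewer cells that express a gene and less RNA per cell cannot be told apart.

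In control DN1 cultures Lyl1 was the most abundant of the 8 per length on days 4, 5 and 7. Per kb of exon, Lyl1 stood at 61.5 ± 1.4 CPM per kb on day 5 (SD, n = 2), Hhex at 6.24 ± 0.36 and Spi1 at 5.69 ± 0.37. Bcl11a followed at 3.44 ± 0.47, Gfi1b at 2.23 ± 0.15, Lmo2 at 1.35 ± 0.024, Tal1 at 0.659 ± 0.12 and Mef2c at 0.434 ± 0.029. Hhex and Spi1 differed by less than the sum of their SDs, and every other pair of neighbours in this order by more. The length is that of all annotated exons of a gene together, 1800 bases for Lyl1, 13175 for Bcl11a and 15715 for Mef2c. The SDs do not cover this choice. Before division by length, Bcl11a (45.3 CPM) exceeded Hhex (31.5) and Spi1 (15.3) on day 5. On day 7 the order was Lyl1 (41.4 ± 3.4 CPM per kb), Spi1 (5.42 ± 0.081), Hhex (4.15 ± 0.033), Gfi1b (1.93 ± 0.56), Bcl11a (1.66 ± 0.083), Lmo2 (0.734 ± 0.11), Tal1 (0.62 ± 0.2) and Mef2c (0.199 ± 0.0069). There Gfi1b and Bcl11a, and Lmo2 and Tal1, were not separated by more than the sum of their SDs. All 8 were low in DN3 controls, with 0 to 22 counts of any member in a library.

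**Figure D1:**
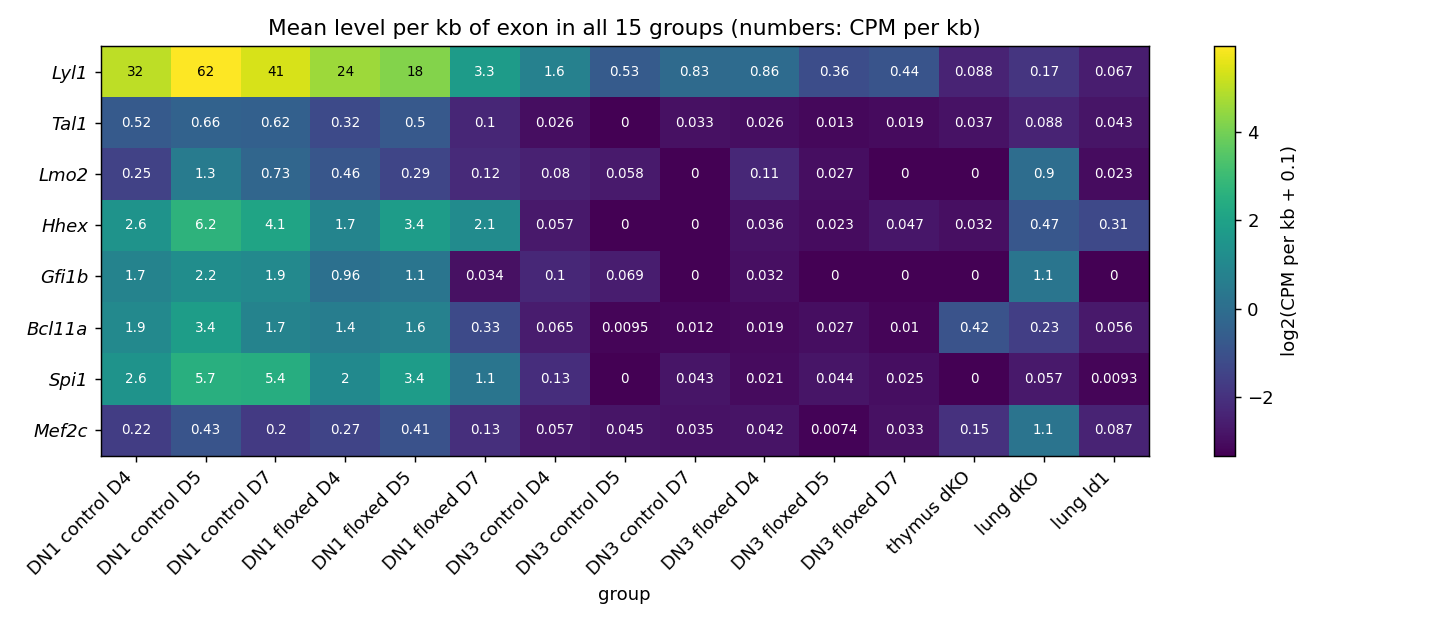
Mean level of each member (vertical axis) in the 15 groups (horizontal axis), coloured by log2(CPM per kb of exon + 0.1), with the CPM per kb written in each cell. Of the 8 members, 7 have their highest mean in DN1 controls of day 5, led by Lyl1 at 61.5 CPM per kb, and Mef2c has it in lung dKO ILC2 at 1.07. The DN3 groups stay at or under 1.58. Floxed DN1 replicate b of day 7 is left out for Mef2c.

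All members but Lyl1, which also had 10 or more counts in 6 of the 12 DN3 libraries, passed the filter on low counts through DN1 libraries. A difference from DN3 was thereby built in for those 7, and their sizes are given as a description without a test. Lyl1 was higher in DN1 than in DN3 controls by 4.51 ± 0.37 on day 4, 6.81 ± 0.42 on day 5 and 5.57 ± 0.39 on day 7 (adjusted p = 3.63e-08, 1.21e-09 and 1.05e-08). Bcl11a had 437 counts against 14 on day 4. On day 7 it had 371 against 3, a ratio of 130 with a 95% counting interval of 44.2 to 635. Hhex had 463 counts in DN1 and none in DN3 controls on day 5, which makes it at least 165-fold higher against a floor of 3 counts over the group, and Spi1 (227 counts against 0) was at least 81.1-fold higher. Tal1 (43 against 0) was at least 15.4-fold higher on that day. Gfi1b (60 counts against 0) was at least 21.1-fold higher and Lmo2 (27 against 0) at least 9.48-fold on day 7. Mef2c kept a low DN3 level of 0.377 to 1.03 CPM, and DN1 exceeded it by 2.06 ± 0.61, 3.23 ± 0.60 and 2.40 ± 0.65 on the 3 days. The edgeR threshold was passed by 7, 8 and 8 members on the 3 days (Lmo2 not on day 4) and by 39.7%, 30% and 22.6% of all genes, from which nothing is read.

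Among the helix-loop-helix factors and their bridge, Lyl1 alone was called in floxed DN1 cells, on days 5 and 7. On day 4 Lyl1 was at 50.2 and 35.7 CPM in floxed replicates a and b and at 58.7 and 57.8 in control replicates c and d. On day 5 it was at 47.3 and 19.3 CPM against 113 and 109. On day 7 it was at 7.61 and 4.34 CPM against 78.9 and 70.1. The floxed libraries lay below both controls on each day, and the floxed share of the control mean fell each time. The floxed mean was 73.7%, 30% and 8.02% of the control mean on days 4, 5 and 7. The change was -0.45 ± 0.27 on day 4 (adjusted p = 0.999 in edgeR), -1.74 ± 0.28 on day 5 (0.000824) and -3.62 ± 0.33 on day 7 (4.13e-07). Without any 1 of the 4 libraries, Lyl1 still passed on day 5 (largest adjusted p 0.0124) and on day 7 (1.06e-05).

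Tal1 and Lmo2 had few reads, and neither was called. Tal1 counts on day 7 were 7 and 0 in floxed replicates a and b and 18 and 28 in controls c and d (0.873 and 0 CPM against 2.11 and 3.32). The groups did not overlap, and the change was -2.54 ± 0.94 (adjusted p = 0.0595). On day 5 floxed replicate a had 3.55 CPM of Tal1, above both controls (2.51 and 3.26), and replicate b had 0.838. Lmo2 counts on day 7 were 4 and 0 against 15 and 12, a change of -2.54 ± 1.07 (adjusted p = 0.0999556), and on day 5 they were 7 and 2 against 20 and 23, a change of -2.21 ± 0.91 (0.2). At this depth a change of that size in Lmo2 was not separable from the spread between libraries. Without floxed replicate a of day 7, both were called (Tal1 -7.42 ± 2.01, adjusted p = 0.00748; Lmo2 -6.66 ± 2.25, 0.0275), with floxed counts of 0, so that these sizes are no bounds.

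Of the repressors, Bcl11a fell on days 5 and 7 and Gfi1b on day 7, and Hhex was not called. Bcl11a stood at 27.5 and 14.5 CPM in floxed replicates a and b on day 5, against 41 and 49.7 in controls c and d. On day 7 it was at 5.74 and 2.85 CPM against 21.1 and 22.6. Both days separated the genotypes without overlap, with changes of -1.12 ± 0.29 (adjusted p = 0.029) and -2.33 ± 0.34 (6.57e-05). The day 5 call of Bcl11a did not survive leaving out replicate b (adjusted p = 0.39), c (0.0958) or d (0.252). Bcl11a overlaps the antisense gene 4930538E20Rik over 316 exonic bases, and the strand setting of the counting is not given in the sources used here.

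Gfi1b had 1 read in the 2 floxed libraries of day 7 together. Its counts were 1 and 0 in replicates a and b against 24 and 36 in controls c and d, or 0.125 and 0 CPM against 2.81 and 4.27. The ratio of control to floxed was 54.4, with a 95% interval of 9.40 to 2184 that covers counting error only, and the fitted change was -5.46 ± 1.30 (adjusted p = 0.00666). On day 5 Gfi1b was at 3.14 and 0.978 CPM against 4.29 and 3.89, a change of -0.98 ± 0.78 (0.587). Without floxed replicate b of day 7 the change was -4.65 with an adjusted p of 0.0597. Hhex kept the largest share of its level among the members with over 100 control counts: 15.3 and 5.97 CPM on day 7 against 21.1 and 20.9, or 50.8% of the control mean. Its change of -0.96 ± 0.40 was not called (adjusted p = 0.0946), and floxed replicate b lay well below replicate a. Without replicate a it was called (-1.83, adjusted p = 0.00299).

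Of the ETS and MADS-box factors, Spi1 fell and Mef2c was not called. Spi1 was at 12.2 and 6.01 CPM in floxed replicates a and b on day 5, against 14.6 and 16.1 in controls c and d. On day 7 it was at 5.12 and 0.949 CPM against 14.8 and 14.5. The floxed libraries lay below the controls on both days, with changes of -0.76 ± 0.48 (adjusted p = 0.463) and -2.23 ± 0.53 (0.00537). The adjusted p was 0.107 when the 4 libraries of day 7 were fitted alone. Mef2c was at 9.02 and 3.77 CPM in floxed cells on day 5, on either side of the controls at 6.51 and 7.15. On day 7 the remaining floxed library had 2.12 CPM of Mef2c against 3.05 and 3.2, a change of -0.54 ± 0.66 (adjusted p = 0.708, with the lone library assumed to vary like the other groups). With replicate b, which held 280 Mef2c counts beside its muscle RNA, the change was 2.67 (adjusted p = 0.0199).

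**Figure D2:**
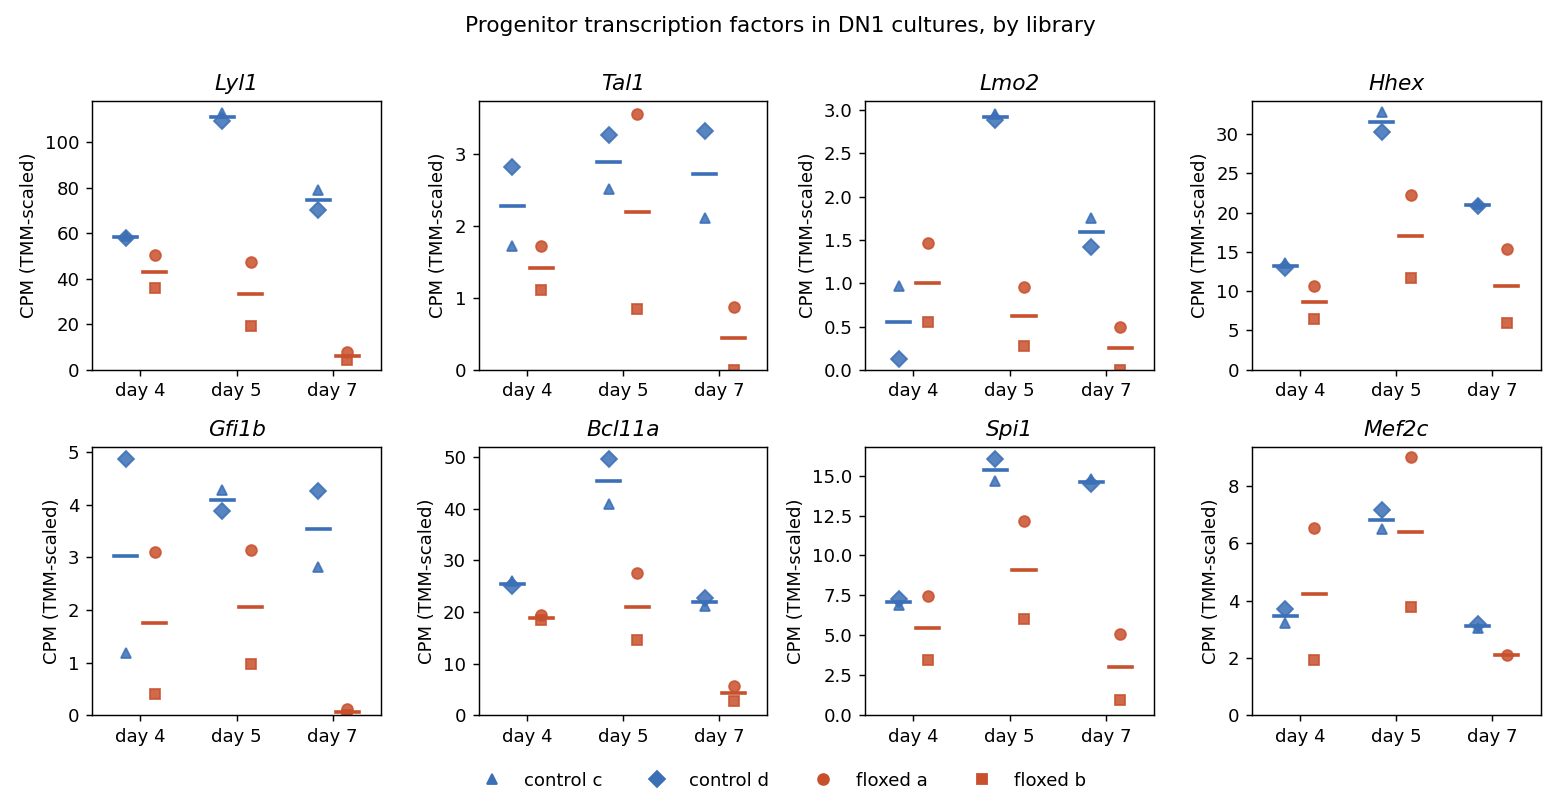
CPM (vertical axis) of each member in every DN1 library on days 4, 5 and 7, with controls c and d in blue, floxed a and b in red and bars at group means. Lyl1 falls to 7.61 and 4.34 CPM in floxed cells of day 7 while controls are at 78.9 and 70.1, and replicate b (squares) lies below replicate a (circles) in every floxed pair.

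In all, 0 of 8 members were called in DN1 cells on day 4, 2 on day 5 and 4 on day 7, all lower. The background was 0.105% of 15172 genes on day 4, 5.02% on day 5 (2.46% lower) and 22.5% on day 7 (10.3% lower), and 10.7% of 15778 genes in the day 7 fit used for Mef2c. On day 7 the members' median change was -2.43 where the median of all genes was -8.31e-05. An unadjusted p under 0.05 was reached by 7 members and by 5326 of the 15172 genes. Lmo2, whose lower floxed level was partly built in by the filter, is among these 7 and in the median. As the number of all genes called did, the day 7 count rose without floxed replicate a of day 7 and fell without replicate b. On day 5 it was 1 when replicate b, c or d was left out.

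**Figure D3:**
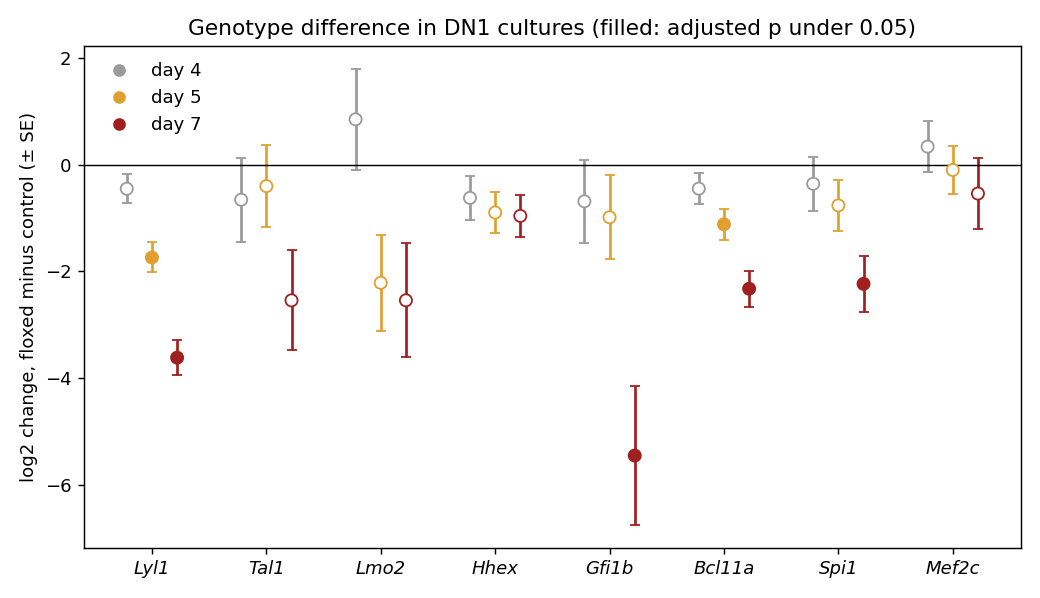
Log2 change of floxed against control DN1 cells ± SE (vertical axis) for each member (horizontal axis) on days 4, 5 and 7, with filled points at an adjusted p under 0.05. Filled points are Lyl1 and Bcl11a on day 5 and Lyl1, Gfi1b, Bcl11a and Spi1 on day 7, and no point of day 4 is filled.

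The 250 bases before the RefSeq start sites of Lyl1, Gfi1b and Bcl11a, which were called, and of Hhex, which was not, are printed to show whether E boxes, the sites of E proteins and of LYL1 and TAL1, lie close to these starts (GRCm38.p6, read 5′ to 3′ on the gene's strand, E boxes of the form CANNTG in capitals).
Lyl1, chr8:84701207-84701456, plus strand: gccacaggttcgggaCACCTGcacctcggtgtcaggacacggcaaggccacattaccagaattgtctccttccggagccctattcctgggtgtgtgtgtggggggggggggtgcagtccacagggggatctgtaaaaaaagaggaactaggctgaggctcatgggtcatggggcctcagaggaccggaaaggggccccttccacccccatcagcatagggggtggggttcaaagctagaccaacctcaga
Gfi1b, chr2:28621983-28622232, minus strand: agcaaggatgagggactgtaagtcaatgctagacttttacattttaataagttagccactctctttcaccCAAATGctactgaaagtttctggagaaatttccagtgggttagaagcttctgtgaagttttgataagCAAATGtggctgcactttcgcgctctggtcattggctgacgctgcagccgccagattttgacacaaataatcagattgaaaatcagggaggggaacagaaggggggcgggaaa
Bcl11a, chr11:24080445-24080694, plus strand: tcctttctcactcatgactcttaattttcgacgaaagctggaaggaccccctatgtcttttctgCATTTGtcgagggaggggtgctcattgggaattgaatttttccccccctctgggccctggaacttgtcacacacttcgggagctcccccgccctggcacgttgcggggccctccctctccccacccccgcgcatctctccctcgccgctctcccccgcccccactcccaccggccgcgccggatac
Hhex, chr19:37434591-37434840, plus strand: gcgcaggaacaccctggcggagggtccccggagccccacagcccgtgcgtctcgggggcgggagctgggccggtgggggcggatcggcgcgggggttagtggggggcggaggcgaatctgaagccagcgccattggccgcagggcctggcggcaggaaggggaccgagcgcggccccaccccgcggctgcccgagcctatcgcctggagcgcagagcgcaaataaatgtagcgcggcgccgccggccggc
In mm10 the whole Lyl1 gene lies at chr8:84701457-84704715, Gfi1b at chr2:28609450-28621982, Bcl11a at chr11:24078056-24174123 and Hhex at chr19:37434810-37440731. The other members lie at chr4:115056426-115071755 (Tal1), chr2:103957986-103981878 (Lmo2), chr2:91082390-91115756 (Spi1) and chr13:83504034-83667080 (Mef2c). All 8 are protein-coding genes. The motifs were counted in the 300 bases from 250 before to 50 after each start. Of the 8 members, 6 had an entry in the table, with 9 starts in all. The Lyl1 window had 1 E box, CACCTG, 235 bases before the start, and 1 GAGGAA, the core that PU.1 binds, 110 bases before it. Gfi1b had 2 E boxes, both CAAATG, at 180 and 113 bases, and a GATAA between them at 119 bases. Bcl11a had 1, CATTTG, at 186 bases, and Hhex none. Tal1 had 1, CATCTG, 10 bases after its first start, with a GAGGAA 146 and a TTATC 205 bases before that start. Mef2c, which like Tal1 was not called, had CAAGTG at 234, CATATG at 100 and a GAGGAA at 122 bases before its first start. It had CAGATG 245 bases before its last start. The other start of Tal1 and that of Mef2c had no E box. This start of Mef2c had a GAGGAA at 186 bases and GATAA at 230 and 128 bases before it. Over 32851 promoters of the table, 72.3% held CANNTG, 20.2% CACCTG or its complement CAGGTG, 28.3% GAGGAA or TTCCTC and 25.4% GATAA or TTATC, counting both strands. CACCTG is itself a CANNTG, so these counts overlap.

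The widening of the DN1 difference after 4-hydroxytamoxifen was tested as the genotype change of day 7 minus that of day 4. It passed for Lyl1 and for Bcl11a (2 of 8, against 7.78% of genes, or 4.34% in the fit used for Mef2c). Lyl1 had a difference of -3.17 ± 0.43 (adjusted p = 0.000139), with floxed and control means of 43 and 58.3 CPM on day 4 and 5.98 and 74.5 on day 7. Bcl11a had -1.88 ± 0.45 (0.0131), with means of 18.9 and 25.5 CPM and then 4.29 and 21.9. Gfi1b reached -4.77 ± 1.62 (0.0869), Spi1 -1.88 ± 0.73 (0.129) and Lmo2 -3.40 ± 1.44 (0.168). For Hhex it was -0.34 ± 0.57 (0.779): its floxed mean was 64.7%, 53.9% and 50.8% of the control mean on the 3 days. Bcl11a missed the threshold without floxed b of day 7 (adjusted p = 0.069), without control c or d of day 4 (0.0512 and 0.0507) or control d of day 7 (0.0556).

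Within each genotype, DN1 cells of day 7 were set against those of day 5, both sorted. In controls Bcl11a fell by 1.08 on the log2 scale (SE 0.29, adjusted p = 0.0174), the 1 member called where 13.1% of genes were. Without any 1 of the 4 libraries it was lost (adjusted p from 0.058 to 0.166). The change of Lyl1 was -0.60 ± 0.27 (0.158), that of Mef2c -1.15 ± 0.47 (0.108) and that of Spi1 -0.10 ± 0.47 (0.931). In floxed cells 4 members were called, against 21.5% of genes (9.63% in the fit used for Mef2c). These were Lyl1 (-2.48 ± 0.33, adjusted p = 5.66e-05), Bcl11a (-2.29 ± 0.34, 0.000152), Gfi1b (30 counts on day 5 and 1 on day 7, a ratio of 31.9 with a counting interval of 5.30 to 1301, 0.0246) and Spi1 (-1.57 ± 0.54, 0.0458). Gfi1b and Spi1 were lost without floxed a of day 5 (0.194 and 0.352) or floxed b of day 7 (0.148 and 0.314). With these 4 libraries fitted alone none of the 5 members that kept a value passed, Lyl1 reaching an adjusted p of 0.0674.

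In DN3 cultures no member was called on any day, where 0.442%, 9.76% and 24.9% of genes were on days 4, 5 and 7. Only Lyl1 and Mef2c had reads in every library. Lyl1 counts in floxed replicates a and b and control replicates c and d were 11 and 14 against 21 and 22 on day 4. They were 5 and 6 against 8 and 7 on day 5, and 2 and 9 against 10 and 17 on day 7. Floxed libraries were lower without overlap on each day, also before the drug, with changes of -0.83 ± 0.54, -0.59 ± 0.78 and -0.89 ± 0.70 (adjusted p = 0.736, 0.716 and 0.409). At 0.339 to 3.16 CPM such differences were not detectable at this depth. An unadjusted p under 0.05 was found for 1243, 3511 and 5328 of 15172 genes on the 3 days. Of the 8 members 0, 1 and 0 had one, the 1 being Mef2c on day 5 (2 counts against 11). DESeq2 called none on any day. With the replicate letter as a block, Mef2c was called on day 5 (-2.55, adjusted p = 0.0479) and Hhex, with 3 counts against 0, on day 7 (0.0325). The DN1 and DN3 responses of day 7 were then compared directly. No member was called (7.79% of genes were), Lyl1 coming closest at -2.73 ± 0.88 (0.065). It was the 1 member with an unadjusted p under 0.05, as 3522 of the 15172 genes had. DESeq2 called Lyl1 there (adjusted p = 0.0024). The DN3 genotype difference of day 7 minus that of day 4 was called for 0 of 8 members (12.3% of genes). So was the change from day 5 to day 7, in DN3 controls (20.3% of genes) and in floxed cells (24.5%).

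The 2 floxed DN1 series differed from each other for all members. In replicate b all 8 were lower than in replicate a on day 4, 6 of them by more than 1.5-fold, where 11.5% of genes were lower by that much. On day 5 all 8 were lower by more than 1.5-fold (11.1% of genes), and on day 7 all 7 with 2 libraries were (20.5%). In controls d was lower than c for 4 of 8 on every day, with 1, 0 and 0 past 1.5-fold (7.6%, 8.67% and 11.8% of genes). Each of these sets 1 library against 1 and has no replicate. Tcf3, a gene targeted for deletion, was also lower in b on each day, as it was in floxed DN3 cells. In DN1 cells it was at 58.9 CPM in a and 41.2 in b on day 4, before the drug. It was at 61.2 and 35.1 CPM on day 5, and at 37.2 and 16.5 on day 7. Tcf12 was at 91.0 in a and 120 in b on day 5. Summed myeloid markers (10 genes) were 467 CPM in a and 130 in b on day 4, against 77.2 and 70.3 in controls c and d. On day 5 they were 259 CPM in a and 11.3 in b, led by S100a8, against 14.3 and 28.8 in controls c and d. For Mef2c, which is expressed in muscle, summed muscle markers were 432 CPM in a and 20.7 in b on day 4. On day 5 the muscle sums were 41.7 and 3.49 CPM. The part of these differences in the members' values was not tested.

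Across the 12 DN1 libraries the members varied together to different degrees, as a description, since the libraries share their groups. Pearson's r of log2(CPM + 1) was 0.96 between Lyl1 and Bcl11a, 0.91 between Hhex and Spi1 and 0.91 between Tal1 and Spi1. Mef2c had r between 0.50 and 0.66 to the other 7 over 11 libraries, a range that also holds Lmo2 with Gfi1b (0.62) and with Tal1 (0.64). The genes most like each member over the 12 culture groups were searched among 7823 genes that reached a mean of 20 CPM in some group. For Lyl1 these were Fgf3 (r = 0.992), Itga2b (0.989) and Hbb-bt (0.983). Fgf3 and Itga2b, the latter an integrin of megakaryocytes and progenitors, were also among the top 3 for Tal1 and Gfi1b. Hbb-bt, a beta-globin, was among the top 3 for Bcl11a (0.984) and Spi1 (0.986). Btk, a kinase of B and myeloid cells, was the nearest to Mef2c (0.977), Plcg2 to Spi1 (0.988), Wdfy4 to Hhex (0.994) and Fbxl18 to Lmo2 (0.951). The DN1-to-DN3 contrast is shared by all these points.

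Markers of erythroid cells and megakaryocytes moved with the members. Their sum (9 genes) was 209 and 260 CPM in DN1 controls of day 4, before the drug, and 117 and 54.7 in floxed cells. On day 5 it was 289 and 394 CPM against 186 and 59.5. The 12 DN3 libraries held 3.58 to 18.2. On day 7 the DN1 sum was 249 and 296 CPM in controls and 55.5 and 37.8 in floxed cells. Hbb-bt made up most of it, at 200 and 233 CPM in controls and 39.7 and 17.4 in floxed cells on day 7. Itga2b was at 17 and 21.9 CPM against 2.87 and 4.34. Klf1, Gp9 and Epor, defining genes of these lineages, stayed at or under 0.469 CPM in every DN1 library of days 5 and 7. The part of such cells in the members' levels was not tested.

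**Figure D4:**
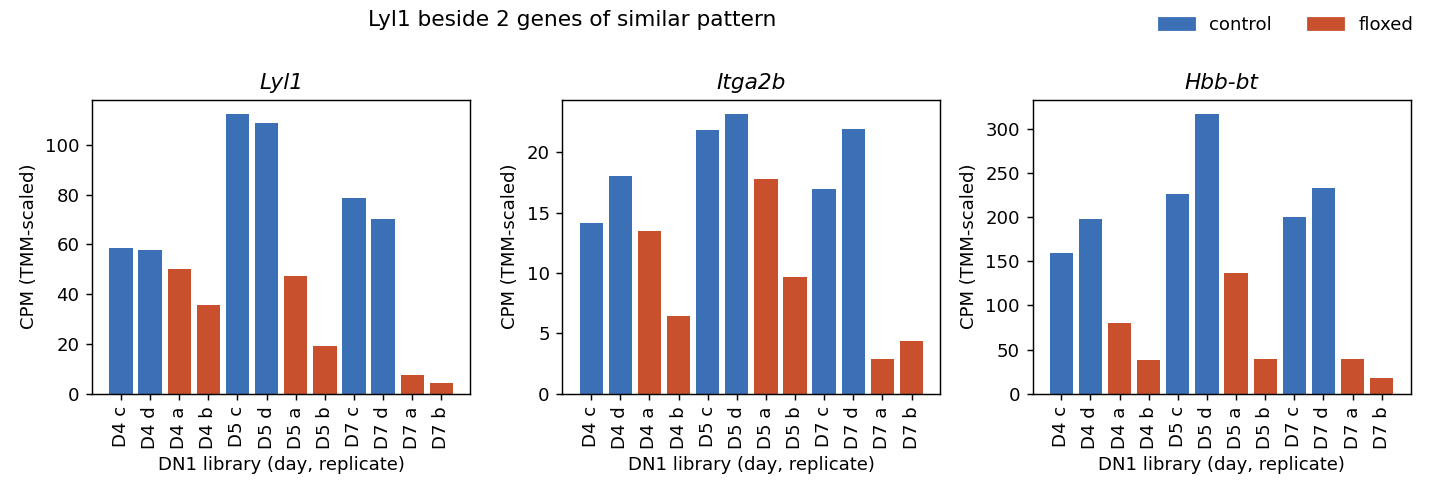
CPM (vertical axis) of Lyl1, Itga2b and Hbb-bt in the 12 DN1 libraries (horizontal axis, day and replicate), controls in blue and floxed in red. On day 7 all 3 are lower in the floxed than in the control libraries, with floxed Lyl1 at 7.61 and 4.34 CPM, Itga2b at 2.87 and 4.34 and Hbb-bt at 39.7 and 17.4.

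Other genes of these pathways were taken from 4 lists and compared in the same fits. Partners and relatives of the LMO2-TAL1-LYL1 complex (17 genes, 15 tested) gave 9 called lower and 2 higher in floxed DN1 cells of day 7, with a median change of -0.97, where 10.3% of all genes were lower and 12.2% higher. Lmo1, a close relative of Lmo2, fell from a control mean of 3.83 CPM to 0.0624 (adjusted p = 0.00139) and Gata2, a progenitor GATA factor, from 2.35 to 0.0624 (0.00341), where 0.0624 is 1 read in replicate a and 0 in b. Erg, an ETS factor of stem cells, fell by 2.94 (SE 0.59). Gata3, the GATA factor of T cells and ILC2, rose by 1.52 ± 0.20 and Fli1, an ETS factor, by 0.70 ± 0.15. The list holds the targeted Tcf3 and Tcf12, both called lower. In DN3 cells of day 7, 7 of the 15 were called lower and 3 higher (12% and 12.9% of all genes), with Ssbp2, which stabilises LDB1, lower by -1.89 ± 0.18 and Fli1 higher by 1.22 ± 0.15. Without floxed DN1 replicate b of day 7 the DN1 counts were 7 lower and 1 higher, since Fli1 (adjusted p = 0.0884), Runx1 (0.0596) and Tcf3 (0.0551) no longer passed.

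Other regulators of stem and early T cell progenitors (19 genes, 18 tested) moved both ways in DN1 cells of day 7: 6 of 18 were lower and 4 higher, with a median of -0.62, where 10.3% and 12.2% of all genes were. Nfe2, an erythroid and megakaryocyte factor, fell by 2.17 (SE 0.35), Gfi1, the relative of Gfi1b, by 1.96 (SE 0.18) and Cd34, a progenitor surface marker, by 1.93 (SE 0.31). Hlf, a stem cell factor, rose by 4.77 ± 0.90 and Hmga2, a chromatin protein of fetal stem cells, by 4.04 ± 0.44. Without replicate b they rose by 3.41 and 3.46, and Meis1, Hoxa7 and Hoxa10 were no longer called while Kit was. In DN3 cells 2 of 18 were lower and 2 higher, near the 12% and 12.9% of all genes, which is no result about the list. Single genes called there were Gfi1 (-1.89 ± 0.18) and Kit (3.03 ± 0.30), the SCF receptor.

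Genes linked to PU.1 in myeloid and progenitor cells (13 genes, 12 tested) gave 2 lower and 1 higher in DN1 cells of day 7, with a median of -0.56. These counts are near the 10.3% and 12.2% of all genes and are no result about the list. Of its single genes, Btk fell by 1.55 (SE 0.31) and Lyn, a Src-family kinase, by 1.01 (SE 0.27), and Fes, another tyrosine kinase, rose by 1.44 ± 0.26. In DN3 cells 1 of the 12 was higher, Fes (2.95 ± 0.42), and 1 lower, Il7r, the IL-7 receptor chain (-1.53 ± 0.25), where 12.9% and 12% of all genes were. T cell commitment genes (14 genes, all tested) gave 11 lower and 0 higher in DN1 cells, with a median of -2.00, where 10.3% and 12.2% of all genes were. Cd3g fell by 4.78 (SE 0.29), Dntt by 4.42 (SE 0.43) and Rag1 by 4.30 (SE 0.50). In DN3 cells 12 of the 14 were lower, where 12% of all genes were. The medians of all genes were -8.31e-05 in DN1 and -0.00866 in DN3 cells, and the DN1 list counts rest on the same libraries as those of the members.

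The thymic ILC2 libraries labelled dKO were compared with the floxed cultures. On the TMM-adjusted scale their mean of Tcf12 was 275 CPM, against 106 in floxed and 267 in control DN1 cells of day 7. In DN3 cells of day 7 it was 156 in floxed and 481 in control cultures. Among the 8 members these ILC2 libraries had more than 1 read of Bcl11a and Mef2c alone. Bcl11a had 10 and 25 counts in the 2 ILC2 libraries (3.21 and 7.89 CPM), in the range of the floxed DN1 cells of day 7 (5.74 and 2.85), from which it differed by 0.37 ± 0.46 (adjusted p = 0.483). Lyl1 had 0 and 1 counts against 61 and 32, a ratio of floxed DN1 to ILC2 of 38 with a counting interval of 6.65 to 1516. Hhex had 1 and 0 against 123 and 44, a ratio of 68.2 (12.1 to 2710). Spi1 had none against 41 and 7, at least 6.54-fold lower. These 3 of 8 passed the edgeR threshold, where 73.7% of genes did and the median of all genes was -0.26. All 3 entered the comparison through culture libraries, Hhex and Spi1 through DN1 libraries alone, so their lower level in ILC2 is a description. Gfi1b and Lmo2 had no reads in ILC2, which allows up to 0.477 CPM over the group, above their floxed DN1 means of 0.0624 and 0.25. Mef2c had 7 and 8 counts (2.25 and 2.52 CPM) against 2.12 CPM in the remaining floxed DN1 library, a change of 0.08 ± 0.75 (0.942), and -3.05 with the muscle-rich library kept (0.00398).

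Against floxed DN3 cells of day 7, Bcl11a and Mef2c were called higher in the thymic ILC2 libraries labelled dKO (2 of 8, against 71.8% of genes). Bcl11a had 35 counts against 2, a ratio of 36.7 with a counting interval of 9.44 to 315 (adjusted p = 1.16e-05). Mef2c was higher by 2.06 ± 0.81 (0.027), from 0.339 and 0.686 CPM in DN3 libraries. The Mef2c call was lost without ILC2 replicate 1 (0.0512) or 3 (0.086), without DN3 replicate a (0.0967), and with libraries scaled by totals (0.118). The ILC2 markers (8 genes) summed to 2568 and 3288 CPM in thymic ILC2. Freshly isolated cells are set against cultured ones here, so culture and cell type cannot be told apart.

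In lung ILC2 Hhex, Bcl11a and Mef2c had enough reads to be tested, and Mef2c was called. Mef2c had 131 and 42 counts in dKO replicates 1 and 3 (20.1 and 13.7 CPM) and 8, 6 and 37 in Id1 replicates 1, 2 and 3 (0.562, 0.769 and 2.79 CPM). The groups did not overlap, and the difference was 3.62 ± 0.94 (edgeR adjusted p = 0.0287, 18.1% of genes called). Mef2c passed the filter on low counts through the dKO libraries and Id1 replicate 3, not through Id1 replicates 1 and 2. A higher level in dKO was thereby partly built in, so the difference is a description and nothing is read from its p-value. The Mef2c call was lost without dKO replicate 1 (0.0686) or 3 (0.0777) or Id1 replicate 1 (0.0855) or 2 (0.0525). Bcl11a had 38 and 1 counts against 26, 0 and 5 (2.06 ± 1.65, 0.423) and Hhex 1 and 14 against 55, 4 and 4 (0.57 ± 1.62, 0.845), and for both the groups overlapped. Of the other members, Gfi1b had 1 and 12 counts against 0 in all 3 Id1 libraries and Lmo2 2 and 11 against 0, 0 and 2, mostly in dKO replicate 3. Lyl1, Tal1 and Spi1 had at most 8 counts in a library.

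Markers of several other cell types were higher in the dKO lung libraries beside Mef2c, and the ILC2 markers (8 genes) were lower, at 3809 and 2153 CPM in dKO replicates 1 and 3 against 4762 to 5674 in Id1. Muscle markers summed to 63.5 and 165 CPM in dKO, mostly Ttn with Acta1 at or near 0, against 14.6 to 21.2 in Id1. B cell markers (7 genes) summed to 41.5 and 20.5 CPM against 0.842 to 6.28, with Pax5, which defines B cells, at 16.2 and 9.10 CPM in dKO and at or under 0.256 in Id1. Stromal markers summed to 45.1 and 92.3 CPM against 1.81 to 14.6, and endothelial markers (7 genes) to 47.4 and 94.3 against 37.8 to 44.6, with Tek at 46.8 in dKO replicate 3. Lung epithelial markers (5 genes) summed to 44.6 and 28.9 CPM against 2.04 to 5.12, mostly Scgb1a1, with Sftpc at or under 0.153 in every lung library. Dendritic cell markers (5 genes) summed to 44.2 and 23.7 CPM against 9.88 to 12.6. Erythroid and megakaryocyte markers summed to 8.89 and 7.48 CPM against 0.562 to 3.71, and the sums of myeloid, T lineage and mast cell markers overlapped between the groups. The dKO libraries held 29734 and 30196 genes with a count and the Id1 libraries, of greater depth, 22504 to 24722. The part of these cells in Mef2c, Gfi1b and Lmo2 was not tested.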

How the data were processed

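The authors deposited raw counts per Ensembl gene, 1 column per library, in a thymus and culture table and a lung table; mm10 and DESeq2 are named in the submitters' processing notes, and no source used here names the aligner, the counter or the strand setting. Of 48881 IDs, 48664 matched GENCODE M21 symbols and 217 did not. From the counts, edgeR 4.0.16 (R 4.3.3) fitted TMM-scaled quasi-likelihood models after filterByExpr (minimum count 10), with 1 term per group: 24 culture libraries (15172 genes), the same plus thymic ILC2 (16391), and 5 lung libraries (19371). All 8 members passed in both thymus fits and 3 in the lung fit. Mef2c came from the fits without floxed DN1 replicate b of day 7 (15778 genes in the cultures). In total 19 comparisons were made, several of which share control or floxed libraries. Alternatives were DESeq2 1.42.0, RLE scaling, no filter, the groups compared alone, a replicate term and leaving out each library; scaling by library totals was added after the TMM factors were seen. The models were tested on simulated data for the DN1 day 7 comparison. Of 50 genes each, 11 changed by 1.5-fold, 34 changed by 2-fold and 46 changed by 4-fold were called. Of 14280 unchanged genes 11 were called. Genes of low mean level were not changed there and no other group differed, so this does not cover the members with few reads.

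The 8 members, and 4 lists from which up to 3 genes each way with the largest change in either day 7 culture comparison are named, were chosen with earlier results of these data known. The genes of similar pattern are the 3 with the highest correlation to each member. Totals were 5908459 to 10692186 counts in cultures, 4818443 to 5669876 in thymic ILC2, 3695522 to 5627406 in dKO lung ILC2 and 9671437 to 13065445 in Id1 lung ILC2. Intervals are exact at 95% and, like the floor of 3 counts over a group, cover counting error only. Promoter sequences are from RefSeq (GRCm38.p6).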

Additional observations from a re-analysis of the deposited data

Results flagged for a closer look

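The genotype difference in DN1 cultures was larger after 4-hydroxytamoxifen than before it for Lyl1 and Bcl11a, by a test of the difference between day 7 and day 4. For Lyl1 the difference was -3.17 ± 0.43 on the log2 scale (edgeR adjusted p = 0.000139), and both floxed libraries lay below both controls on each of these days. For Bcl11a it was -1.88 ± 0.45 (adjusted p = 0.0131), again with floxed libraries below controls on both days. Day 4 libraries came from unsorted cultures, with 4518 to 6243 CPM of summed stromal markers, and day 7 libraries from sorted cells; the part of this in the difference was not tested.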

How the results depend on the processing

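RLE scaling changed no call of a member. With the replicate block (a centred b-against-a and d-against-c term), the members called rose from 0 to 1 in DN3 on day 5 (Mef2c) and on day 7 (Hhex), from 0 to 2 for DN1 minus DN3 on day 7 (Lyl1 and Hhex) and from 1 to 3 for DN1 controls of day 7 against day 5. It also added Hhex on day 5 (-0.97, adjusted p = 0.0302) and Tal1 and Hhex on day 7 in DN1 cells. Deviations of same-letter libraries correlated at 0.215, 0.148 and 0.187 between the 3 days in floxed DN3 cells, at -0.16 to 0.165 in floxed DN1 cells and at -0.0809 to 0.0135 in controls of each stage, and at -0.241 to 0.125 between DN1 and DN3. Not every pair passed 0.1 and floxed and control cultures share no letter, so the letters were not taken to pair them. DESeq2 gave 1 for DN1 minus DN3 on day 7. Without a filter on low counts Hhex was added in DN1 on day 5 (adjusted p = 0.0234) and Hhex (0.00367) and Tal1 (0.00512) on day 7, and the counts were 4 for DN1 day 7 minus day 4, 1 for DN1 minus DN3 and 3 for DN1 controls of day 7 against day 5. With the groups compared alone they were 4 for DN1 controls and 0 for floxed DN1 cells of day 7 against day 5, and 1 for thymic ILC2 against DN3, where library totals also gave 1. Mef2c in DN1 cells of day 7 reversed to 2.67 with replicate b kept.

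Leaving out 1 library at a time, the counts ranged from 1 to 2 in DN1 on day 5, 3 to 7 on day 7, 1 to 5 for day 7 minus day 4 and 0 to 1 for DN1 minus DN3. They ranged from 4 to 7, 6 to 8 and 5 to 8 for control DN1 against DN3 on days 4, 5 and 7. For DN1 day 7 against day 5 they were 0 to 0 in controls and 2 to 6 in floxed cells. Thymic ILC2 gave 1 to 2 against DN3 and 3 to 3 against DN1, and the lung 0 to 1. In DN1 on day 5 Tal1 ranged from -1.78 to 0.29 and Mef2c from -0.84 to 0.42, both reversed without floxed replicate b of that day. The cause of these changes was not tested. Low counts limit Tal1, Lmo2 and Gfi1b in floxed DN1 cells and most members in DN3 cells and ILC2. All genes called in DN1 on day 7 numbered 3412, 1688 without floxed b, 5803 without floxed a and 798 with those 4 libraries alone.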
